A study of Mus musculus with 12 samples.

Results

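Lung tumours of mice lacking Med23 in T cells were set beside sorted alveolar type 2 (AT2) cells of the same genotype. The comparison took every tumour library and every AT2 library with the knockout label, 3 of each, which makes 6 of the 12 libraries of the series, and was made on the 54186 gene identifiers that both count tables list. The tumours came from C57BL/6 mice 102, 217 and 224 at 18 months of age, and the AT2 cells from C57BL/6 mice 175, 179 and 191 at 6 months. All 6 mice carried the deletion of Med23 in T cells, so neither group is wild-type, and the sources used here name neither the driver of that deletion nor the markers used to sort the AT2 cells. The tumours were spontaneous by the series' description. They were tissue pieces, which hold blood vessels, stroma and immune cells, while the AT2 cells were purified by FACS. Tissue, age, cell sorting and count table all change together between the groups, and their parts in a difference cannot be told apart. Levels are therefore described, and no p-value is given for tumour against AT2. Adjacent normal lung of the tumour mice and wild-type AT2 cells (mice 176, 177 and 190, 6 months) served as reference levels, and each p-value printed comes from a test within 1 table.

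AT2 cells are the cuboidal cells of the alveolus that make, store and recycle surfactant, a film of phospholipid and surfactant proteins. They also act as stem cells of the alveolus, giving rise to the flat alveolar type 1 (AT1) cells through a transitional state, and they are a common cell of origin of lung adenocarcinoma in mice. Their identity rests on transcription factors such as Nkx2-1, Cebpa and Etv5, and their lipid output on the SREBP-driven synthesis of fatty acids and cholesterol.

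The 3 tumour libraries held 67632017 to 77951014 counts and the 3 AT2 libraries 15943084 to 18148829. Values below are CPM, counts scaled to library size with TMM factors over all 12 libraries, and are listed for tumours 102, 217 and 224, for AT2 mice 175, 179 and 191, or for adjacent lung 102, 217 and 224, in these orders. The AT2 libraries were close to each other (Pearson r across genes of 0.991 to 0.992 on the log2 scale) and the tumours less so (0.879 to 0.937). Tumour 217 stood apart: Sftpc took 14.8% of its counts against 3.73% and 5.58% in the others, mitochondrial transcripts took 6.44% against 2.78% and 2.89%, and its expression fell with exonic length relative to the other tumours (Spearman rho -0.39). Across genes the tumour minus AT2 difference also fell with length (rho -0.28). Between knockout and wild-type AT2 cells none of 14053 genes passed with edgeR (0.0% called, 347 genes at an unadjusted p under 0.05), and DESeq2 called 1.

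Levels of genes with near-identical copies differed between the 2 tables. For each gene the share of its transcript sequence was computed, in words of 64 bases, that also occurs in transcripts of another gene. Among the 6496 genes with no shared word the median tumour minus AT2 difference was 0.05 on the log2 scale, and among the 461 genes sharing at least 75% it was 2.05. Adjacent lung minus wild-type AT2 cells, which also crosses the tables, moved from -0.12 to 1.41 over the same range. Tumour minus adjacent, within the lung table, moved from 0.09 to 0.41. How reads were assigned to such genes is not given in the sources used here. The share is given below wherever a gene described shares 25% or more.

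**Figure D1:**
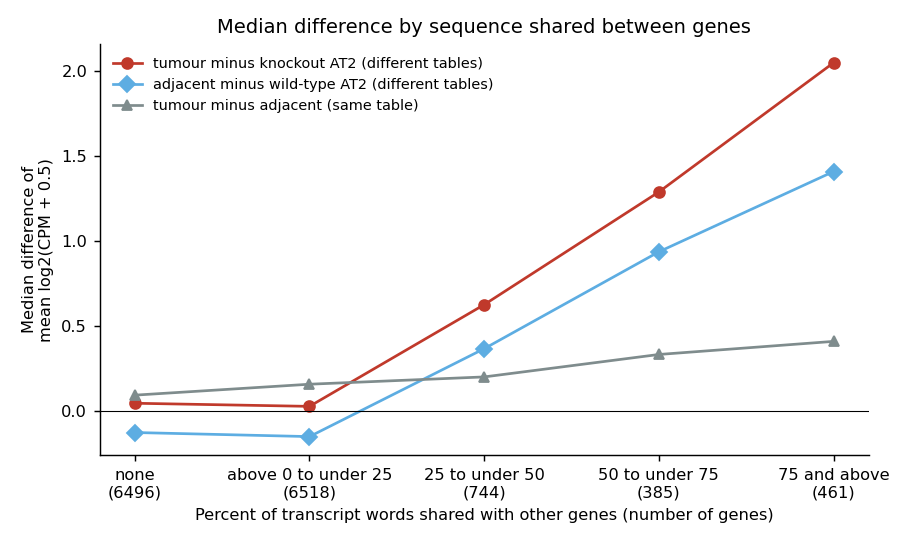
Median difference of mean log2(CPM + 0.5) (vertical axis) for genes grouped by the percent of their 64-base transcript words found in another gene (horizontal axis, number of genes in brackets). Both lines that cross the 2 count tables climb, to 2.05 and 1.41, and the line within the lung table ends at 0.41.

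A gene was called above AT2 when its lowest tumour value lay at least 4-fold over its highest AT2 value on the log2(CPM + 0.5) scale, and below AT2 in the mirror case. Of 14612 genes with at least 1 CPM in at least 3 of the 6 libraries, 1319 were above (9.03%) and 267 below (1.83%). Without tumour 102 the second count was 421. Of the 1319 genes above, 180 had no count in any AT2 library, and 350 had a gap of at least 16-fold. Leaving out genes that share at least 25% of their sequence, 984 stayed above and 255 below. With a pseudocount of 2 the calls of 20 named genes were lost, among them Spock2, Ereg, Sfrp1, Egln3, Nox4, Ifit2, Adm and Saa3. The rule's edge fell among genes of moderate change: Chdh was just inside at 56.6, 22.3 and 24.97 CPM in tumours and 5.20, 3.79 and 4.96 in AT2 cells, and Gm12854 just outside at 11.7, 20.2 and 33.0 against 2.50, 2.55 and 2.03. On the other side Ric3 was just inside at 2.10, 0.308 and 0.213 against 13.3, 9.90 and 11.3 CPM, and Dst just outside at 83.7, 48.2 and 64.9 against 454, 368 and 336 CPM. Without a 4-fold gap, all 3 tumours lay over all 3 AT2 libraries in 5182 genes (35.5%) and under them in 3674 (25.1%). Counts of list members below are to be read beside these shares of all genes.

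Tumour and adjacent lung differed in 2007 of 19995 genes (edgeR), 571 higher (2.86%) and 1436 lower (7.18%) in tumours. Leaving out tumour 102 or 224 or any adjacent library left 598 to 879 calls. Of the genes above AT2, 122 were also higher than adjacent lung (0.835% of the 14612 genes) and 230 were lower than adjacent lung. The first set dropped to 74, 68 and 59 without adjacent 102, 217 and 224. Of the genes below AT2, 60 were also lower than adjacent lung (0.411%) and 1 was higher. The second set dropped to 26, 34 and 24 without these adjacent libraries and to 29 without tumour 224.

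**Figure D2:**
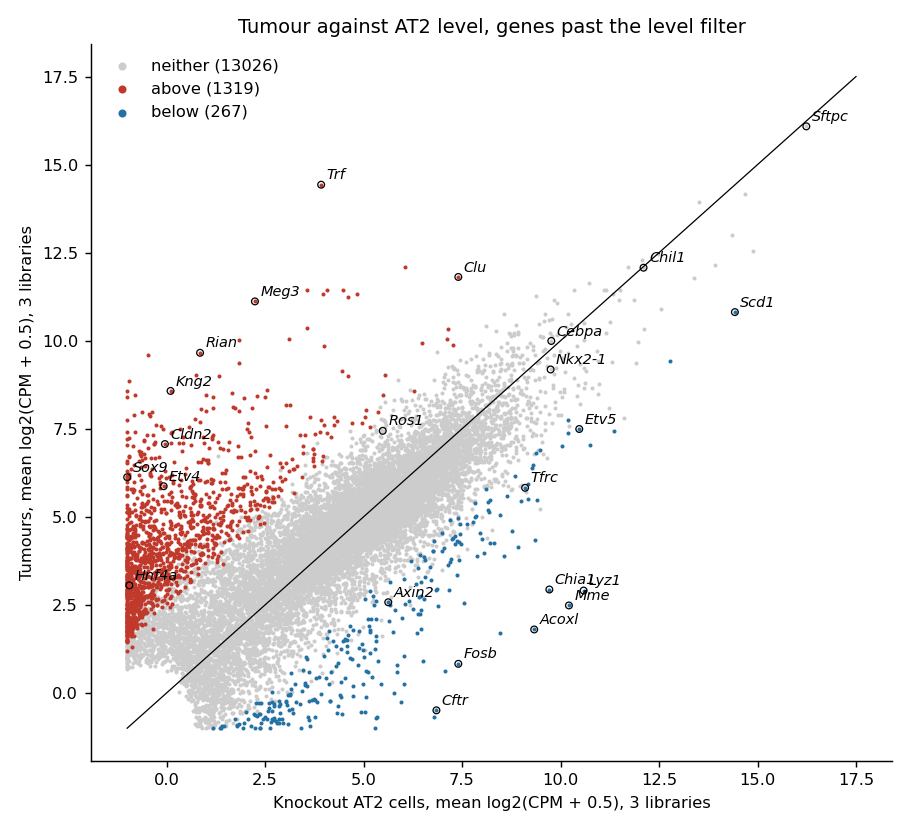
Mean log2(CPM + 0.5) in tumours (vertical axis) against knockout AT2 cells (horizontal axis), 3 libraries each, for 14612 genes, with the line of equality. Genes above AT2 (1319, red) spread widely at the left edge, where AT2 cells hold few or no counts, and genes below AT2 (267, blue) include some of the highest AT2 levels, such as Scd1. Ringed points carry gene names.

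Trf, transferrin, the iron carrier of plasma, had the widest gap of all genes above AT2. It was at 27700, 20329 and 19086 CPM in the tumours, 14.96, 14.3 and 14.8 in AT2 cells and 392.4, 488 and 468 in adjacent lung. The tumour minus AT2 difference was 10.51 ± 0.17 on the log2 scale (± SE, n = 3 each), and tumour against adjacent lung gave 5.58 ± 0.51 (edgeR adjusted p = 0.00592). Of its transcript sequence 57.5% recurs in other genes, and the part of the tables in the difference from AT2 was not tested. The difference from adjacent lung was measured within 1 table. Tfrc, the transferrin receptor that brings iron into cells, went the other way, at 59.2, 51.6 and 58.0 CPM in tumours and 523, 591 and 533 in AT2 cells (-3.28 ± 0.08), and did not pass against adjacent lung (edgeR adjusted p = 0.554). All 3 tumours thus lay over all AT2 libraries for the carrier and under them for the receptor, which was singled out after its values were seen.

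Next by gap, leaving out predicted genes, came genes with almost no count in AT2 cells. Tmem252, a small membrane protein gene, was at 362, 728 and 377 CPM in tumours and 1 count in all in AT2 cells. Cd177, a surface glycoprotein best known from neutrophils, was at 622, 629.6 and 1175 CPM against 0.814, 0.0593 and 0, and Igfbp3, a carrier of insulin-like growth factors, at 292, 442 and 329 against 0.125, 0.119 and 0. Each was also higher than adjacent lung, by 3.31 ± 0.58 (edgeR adjusted p = 0.0167) for Tmem252, 3.03 ± 0.68 (edgeR adjusted p = 0.0331) for Cd177 and 2.72 ± 0.51 (edgeR adjusted p = 0.0197) for Igfbp3. St8sia6, a sialyltransferase, was at 171, 98.9 and 88.8 CPM against 0.188, 0.237 and 0 in AT2 cells, and was higher than adjacent lung (4.195 ± 0.39, edgeR adjusted p = 0.00592). Pf4, the platelet factor 4 chemokine, was at 139.7, 827 and 376 CPM against 2.82, 1.01 and 1.08, with tumour 217 the highest and tumour 102 the lowest (7.47 ± 0.83), and was likewise higher than adjacent lung (4.79 ± 0.76, edgeR adjusted p = 0.0126). S100a9, a gene of neutrophils, was at 18.7, 46.6 and 5.47 CPM in tumours and 145, 389.7 and 6.01 in adjacent lung. It did not pass against adjacent lung (edgeR adjusted p = 0.21, 0.105 once blocked by mouse). A list of 11 neutrophil genes summed to 1940, 2845 and 1105 CPM in tumours and 547, 2067 and 892 in adjacent lung. Yet none of the 11 was higher than adjacent lung and 1 was lower (4 with the mouse as a block). Their median log2 fold change against adjacent lung was -2.64. S100a8, S100a9, Retnlg and Mmp9 were each at or under 46.6 CPM in tumours, so most of the tumour sum came from other members. The part of neutrophils in the Cd177 level was not tested.

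Col15a1, a basement membrane collagen, was at 660.0, 115 and 171 CPM in tumours, highest in tumour 102, and at 3 counts in all AT2 libraries together, and was higher than adjacent lung (3.96 ± 0.70, edgeR adjusted p = 0.0166). Rgs5, a pericyte gene, was at 152, 92.5 and 163 CPM against no count in AT2 cells, at least 2198-fold higher against a floor of 3 counts over the AT2 group, and was higher than adjacent lung (3.19 ± 0.40, edgeR adjusted p = 0.00808). Col1a1, the main fibrillar collagen, and Sparcl1, a matrix glycoprotein, were also far above AT2 (8.29 ± 0.17 and 8.59 ± 0.34) but did not pass against adjacent lung (edgeR adjusted p = 0.495 and 0.107), though Sparcl1 was lower with the mouse as a block (0.022). Col1a1 was at 255.6, 237 and 206 CPM in tumours and 264, 295 and 311 in adjacent lung. Sept2, a septin that also ranked here at 208, 131 and 183 CPM against 0, shares 100% of its sequence with another annotated gene, was at 0 in adjacent 217 too, and is not read as a difference between tumour and AT2.

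The imprinted Dlk1-Dio3 region on chromosome 12 was far above both references. In this region Dlk1, Rtl1 and Dio3 are expressed from the paternal and the non-coding Meg3, Rian and Mirg from the maternal chromosome. Of 7 listed members 5 passed the level filter (Dlk1, Meg3, Rian, Mirg and Dio3os), the first 4 were above AT2, and all 5 were higher than adjacent lung. Meg3 was at 1302, 2554 and 3293 CPM in tumours, 4.82, 4.27 and 3.69 in AT2 cells and 7.59, 3.43 and 8.35 in adjacent lung (8.87 ± 0.41 against AT2). Rian was at 794, 961 and 689 against 1.63, 1.24 and 1.08 CPM (8.81 ± 0.19), and Mirg at 54.2, 143 and 79.5 against 0.125, 0.237 and 0.0636 (7.07 ± 0.42). Dlk1, which encodes a Notch-like membrane ligand of fetal tissues, was at 305, 68.7 and 54.4 CPM with tumour 102 the highest, against 1 count in all AT2 libraries together (7.66 ± 0.78). Against adjacent lung the log2 fold changes were 8.47 ± 0.72 (edgeR adjusted p = 0.00592) for Meg3, 7.31 ± 0.67 (edgeR adjusted p = 0.00592) for Rian, 8.66 ± 0.62 (edgeR adjusted p = 0.00592) for Mirg and 7.85 ± 1.54 (edgeR adjusted p = 0.0229) for Dlk1. Dio3 and Rtl1 did not pass the level filter. Dio3 was at 0.5, 0.4 and 0.16 CPM in tumours and 0.25, 0.533 and 0.445 in AT2 cells, groups that overlapped, and Rtl1 at 0.0833, 1.22 and 2.995 CPM in tumours with no count in AT2 cells. Both were named after their values were seen. Whether counting used strand is not given in the sources used here, so reads of Rtl1 and Dio3 and of transcripts antisense to them cannot be told apart. Of imprinted genes elsewhere, 1 of 13 members past the filter was above (Gnas, 489, 1877 and 1037 against 93.5, 90.5 and 81.5 CPM), 1 was below (Nnat, 4.93, 3.84 and 5.19 against 54.5, 53.5 and 57.0), and the median difference of the 13 was -0.87.

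Meg3, Rian and Mirg are also hosts of microRNAs. The RefSeq records used place 18 hairpins within the 3 genes on the same strand (GRCm38.p6), 1 in Meg3 (109541001 to 109571726 on chromosome 12, plus strand), 3 in Rian (109603940 to 109661716) and 14 in Mirg (109729764 to 109749460). In Meg3 mature miR-1906 (109544588 to 109544609) lies far from miR-770-5p (109563710 to 109563731). The 1 hairpin counted there cannot hold both, so the hairpin counts may be short. The libraries were made from poly-A RNA, so mature microRNAs were not measured and the host levels above do not give theirs. The sequences below show what the hosts carry: one mature form from Meg3, one from Rian and 3 from Mirg, with the seed, bases 2 to 8, in capitals. No seed is shared among these 5, and among all 35 mature forms in the hosts only miR-453 and miR-496a-5p share one.
miR-770-5p (Meg3): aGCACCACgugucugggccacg
miR-370-3p (Rian): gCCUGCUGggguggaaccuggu
miR-134-5p (Mirg): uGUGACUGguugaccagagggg
miR-154-5p (Mirg): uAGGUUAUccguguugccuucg
miR-410-3p (Mirg): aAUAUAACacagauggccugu

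Several genes of a mixed embryonic and oncofetal list were above AT2. Of its 20 genes 14 passed the level filter, 8 of these were above AT2, none was below, and 7 of 19 tested were higher than adjacent lung. The list was chosen with earlier results of these data known. In AT2 cells 7 of the 20 had no count and could pass the filter only through the tumours, which raises the share above. The median difference was 3.50 past the filter and 1.31 over all 20. Sox9, a transcription factor of the distal tips of the embryonic lung, was at 44.4, 65.5 and 114 CPM in tumours and at no count in any of the 3 AT2 libraries, at least 1210-fold higher. Gja3, a connexin best known from the lens, was at 26.4, 10.5 and 31.5 CPM and Tbx15, a T-box factor of mesoderm, at 17.8, 31.9 and 30.9, against 0 counts and 0, 0.356 and 0.191 CPM in AT2 cells. Mycn, a MYC family gene active in lung progenitors and named after its values were seen, was at 22.3, 18.0 and 52.6 CPM against 0.626, 0.415 and 0.699. All 4 were higher than adjacent lung, by 6.52 ± 0.58 (edgeR adjusted p = 0.00592) for Sox9, 9.07 (edgeR adjusted p = 0.00627) for Gja3, 8.56 ± 0.98 (edgeR adjusted p = 0.00664) for Tbx15 and 2.83 ± 0.56 (edgeR adjusted p = 0.0229) for Mycn.

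On the list of gut, stomach and liver genes, 12 of 29 passed the filter, 6 were above AT2 and 1 below (Gkn3), and 10 of 20 tested were higher than adjacent lung. One of the 6 shares at least 25% of its sequence with other genes. In AT2 cells 11 of the 29 had no count and could pass the filter only through the tumours. This list too was chosen with earlier results known. Kng2, a kininogen normally made by the liver, was at 442, 439 and 285 CPM in tumours, 0.563, 0.652 and 0.509 in AT2 cells and 0.918, 3.28 and 1.95 in adjacent lung (7.53 ± 0.60, edgeR adjusted p = 0.00592 against adjacent), and 1 wild-type AT2 library stood apart at 13.3 CPM. Cldn2, the cation-pore claudin of leaky epithelia, was at 222, 60.7 and 177 CPM against 1.002, 0.474 and 0.127 in AT2 cells and was higher than adjacent lung (5.74 ± 0.60, edgeR adjusted p = 0.00592). Cltrn, collectrin of kidney and pancreas, was at 1.97, 60.9 and 83.6 CPM with tumour 102 far under the other 2, and at 0 counts in the knockout AT2 and adjacent libraries. It was no longer called with wild-type AT2 cells as the reference. Ctse, a gastric protease, was at 19.6, 7.60 and 40.0 CPM against 1 count over the AT2 libraries, and did not pass against adjacent lung (edgeR adjusted p = 0.126). Hnf4a, a transcription factor of gut and liver named after its values were seen, was at 9.07, 7.92 and 6.64 CPM against 0.0626, 0 and 0, and was higher than adjacent lung (4.05 ± 0.58, edgeR adjusted p = 0.01). Of 10 claudins past the filter 3 were above AT2: Cldn2, Cldn4 at 5.81, 5.91 and 16.1 against 0.438, 0.474 and 0.191 CPM, and the endothelial Cldn5 at 22.9, 53.4 and 32.5 against 0.689, 0 and 0.254. Cldn4 was not called with wild-type AT2 cells as the reference.

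Lung epithelial transcription factors lay on both sides of the AT2 level. Of 22 such factors past the filter 2 were above (Sox9 and Sox2) and 1 was below (Etv5), beside 9.03% and 1.83% of all genes. With no overlap 6 were higher and 5 lower, beside 35.5% and 25.1% of all genes, and the median difference was -0.10. Against adjacent lung 10 of 23 were higher. Nkx2-1, the lineage factor of lung and thyroid, was at 386, 543 and 936 CPM in tumours and 880.5, 851 and 848 in AT2 cells, and the groups overlapped (-0.56 ± 0.37). Cebpa, needed for mature AT2 function, was at 911, 1024 and 1136 against 832, 995 and 795 CPM (0.23 ± 0.13), and Elf5, an ETS factor of lung tips and AT2 cells, at 93.4, 153 and 99.1 against 92.5, 101.4 and 93.3 (0.23 ± 0.23). Against adjacent lung Cebpa gave 2.28 ± 0.38 (edgeR adjusted p = 0.0145) and Elf5 2.80 ± 0.33 (edgeR adjusted p = 0.00704). These 3 factors were named after their values were seen. In each of the 3 the tumour and AT2 ranges overlapped. Sox2, the factor of airway epithelium, was at 41.5, 21.9 and 24.9 CPM against 0.939, 1.66 and 2.23 in AT2 cells, and adjacent lung held a like level at 28.3, 17.2 and 18.2.

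Surfactant genes differed among themselves. Sftpc, the AT2-specific surfactant protein C, was at 37899, 176830 and 50235 CPM in tumours and 78863, 77767 and 75401 in AT2 cells (-0.15 ± 0.68), so tumour 217 lay over and the other 2 under the AT2 range. Sftpd was at 2443, 4604 and 1495 against 2568, 2484 and 2641 CPM with overlap, while Sftpb at 15033, 20702 and 19997 against 25638, 27999 and 25868 and Sftpa1 at 6707, 12693 and 6655 against 20599, 21135 and 21187 did not overlap and were lower (-0.53 ± 0.15 and -1.34 ± 0.31). Of the 25 genes on the AT2 list, all past the filter, none was above AT2, 3 were below and 17 were lower with no overlap, with a median difference of -1.53 against 0.11 over all genes. Yet 7 of the 25 were higher than adjacent lung and 1 was lower, and with the mouse as a block 13 and 1. The summed level of the list was 103166 to 239255 CPM in tumours, 230841 to 248434 in AT2 cells and 29692 to 69208 in adjacent lung. In a bulk sample fewer AT2-like cells and less RNA per cell cannot be told apart.

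The AT2 genes below were Lyz1, Scd1 and Hc. Lyz1, the lysozyme of a subset of AT2 cells, was at 21.4, 4.89 and 3.09 CPM in tumours, 1223, 1846 and 1608 in AT2 cells and 129, 80.5 and 64.2 in adjacent lung, so that the tumours lay under even the mixed tissue (-3.30 ± 0.75, edgeR adjusted p = 0.034). Hc, complement C5, was at 1598, 457 and 452 against 7200, 6880 and 6983 CPM, and Lpcat1, which remodels surfactant phospholipid, at 1035, 33.8 and 324 against 3154, 3267 and 2911 with tumour 217 the lowest. Hc did not keep its call with wild-type AT2 cells as the reference.

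**Figure D3:**
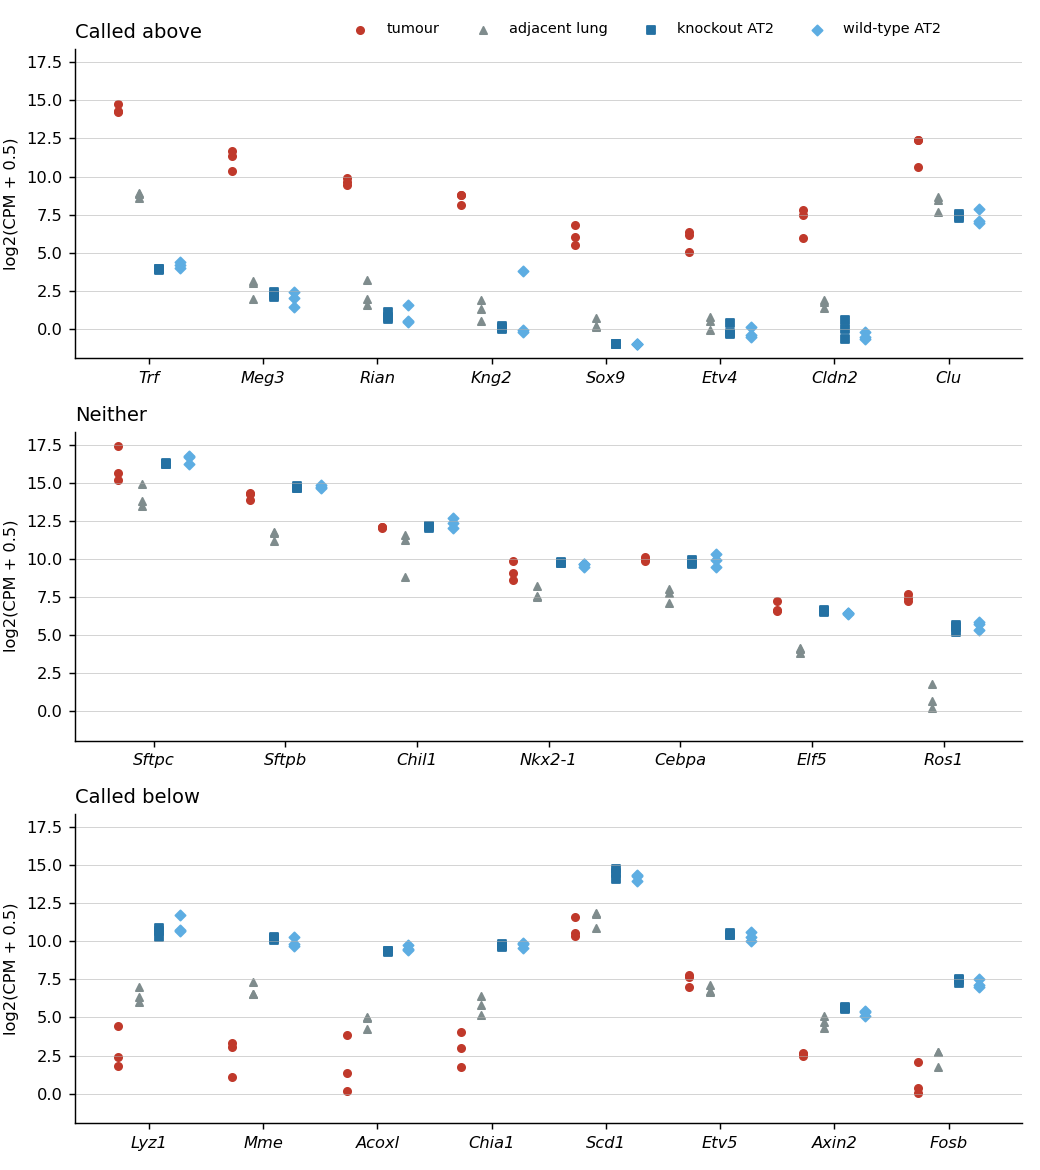
log2(CPM + 0.5) of 23 genes in each of the 12 libraries, in 4 groups of 3. Top, 8 genes called above AT2, such as Sox9 with no count in AT2 cells; middle, 7 genes called neither, in most of which tumours lie with AT2 cells and over adjacent lung; bottom, 8 genes called below, among which Lyz1, Mme, Chia1 and Axin2 also lie under adjacent lung.

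Of the 12 genes with the widest gap below AT2, leaving out predicted genes, 1 (Lyz1) was on the AT2 list. Mme, the membrane protease neprilysin, was at 7.70, 9.52 and 1.64 CPM in tumours against 1086, 1267 and 1215 in AT2 cells (-7.73 ± 0.70) and 158, 92.4 and 93.4 in adjacent lung. Tmem132d, a membrane protein gene, was at 0.0695, 0.369 and 0 against 114, 108 and 107 CPM, and Cftr, the chloride channel mutated in cystic fibrosis, at 0.389, 0.308 and 0 against 90.2, 137 and 123. Chia1, acidic chitinase, was at 16.3, 7.47 and 2.85 against 786, 917 and 824 CPM, and Pon1, a lipid-lactone hydrolase, at 1.06, 1.91 and 0.493 against 133, 137 and 129. Spink5, a protease inhibitor, had no count in any tumour and 35.1, 30.7 and 53.5 CPM in AT2 cells, and was no longer called with wild-type AT2 cells as the reference. The remaining genes of widest gap were Lyz1, Hes2, Acoxl, Galnt13, Fabp12 and Ttn, with differences from -7.68 (Lyz1) to -5.56 (Galnt13). In all 12 the highest tumour lay at least 37.6-fold under the lowest AT2 library on this scale (Ttn, the narrowest).

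Of these, Mme, Lyz1, Chia1, Pon1, Spink5 and Ttn were lower than adjacent lung as well, with log2 fold changes of -4.27 ± 0.67 (edgeR adjusted p = 0.0125) for Mme, -2.80 ± 0.65 (edgeR adjusted p = 0.0367) for Chia1 and -4.12 ± 0.74 (edgeR adjusted p = 0.0172) for Pon1. Ttn lost this call with the mouse as a block (edgeR adjusted p = 0.0818). The others that were low against both were led by Cntfr, Slc10a6, Tmem28, Kcnj13, Sec14l3 and Igfbp6. Slc10a6, a steroid sulfate transporter, was at 1.44, 3.03 and 0.253 CPM against 56.7, 49.7 and 66.9 in AT2 cells and 41.6, 23.02 and 15.7 in adjacent lung. Sec14l3, a lipid-binding protein of airway cells, was at 14.6, 27.7 and 7.33 against 367, 418 and 357 CPM with 952, 306 and 615 in adjacent lung (-5.33 ± 0.70, edgeR adjusted p = 0.00871). Igfbp6, a carrier of insulin-like growth factor 2, was at 2.32, 11.5 and 0.532 against 86.3, 83.1 and 74.8 CPM, opposite to Igfbp3. Cntfr, a cytokine receptor subunit, gave -2.60 ± 0.66 (edgeR adjusted p = 0.0475, 0.0613 once blocked by mouse) against adjacent lung. Kcnj13, a potassium channel that shares 40.3% of its sequence with other genes, was at 0.333, 1.05 and 0.785 against 32.4, 28.7 and 31.8 CPM.

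Genes of lipid synthesis were largely below or under the AT2 level. Of 18 genes of fatty acid and phospholipid synthesis 7 were below AT2, none was above, 14 were lower with no overlap, and the median difference was -2.05. One of the 7 shares at least 25% of its sequence with other genes. Scd1, the desaturase that makes oleate, was at 3026, 1479 and 1300 CPM in tumours and 22656, 27083 and 17375 in AT2 cells (-3.61 ± 0.42), and Scd2, its paralog, at 86.1, 501 and 119.6 against 2565, 3267 and 2208 (-3.93 ± 0.80). Gpam, which starts glycerolipid assembly, was at 41.5, 22.5 and 14.6 against 399, 466 and 448 CPM, and Acoxl, an acyl-CoA oxidase-like gene, at 0.625, 14.1 and 2.09 against 657, 644 and 630.3 with tumour 217 the highest. Against adjacent lung 2 of the 18 were higher and none was lower. The summed level was 5154 to 8334 CPM in tumours, 33778 to 47442 in AT2 cells and 3798 to 6072 in adjacent lung.

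Cholesterol synthesis was lower against both references. Of 17 genes, all past the filter, 6 were below AT2, none was above, 16 were lower with no overlap, and the median difference was -2.39. Against adjacent lung 6 of 17 were lower and none was higher. Idi1, isopentenyl diphosphate isomerase, was at 18.3, 9.90 and 11.5 CPM in tumours, 144, 157 and 137 in AT2 cells and 56.2, 47.1 and 47.0 in adjacent lung (-1.98 ± 0.34, edgeR adjusted p = 0.015). Lss, lanosterol synthase, was at 26.03, 17.2 and 15.6 against 178, 204 and 139 CPM and did not pass against adjacent lung (edgeR adjusted p = 0.542). The summed level was 512 to 645 CPM in tumours, 2771 to 3600 in AT2 cells and 1004 to 1306 in adjacent lung, ranges that do not overlap.

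Genes downstream of RAS-MAPK signalling, the growth pathway most often activated in lung adenocarcinoma, were in part higher in tumours than in AT2 cells. Of 20 such genes 6 were above AT2 and 1 (Etv5) was below, beside 9.03% and 1.83% of all genes. With no overlap 11 were higher and 2 lower, beside 35.5% and 25.1% of all genes, and the median difference was 1.02. Their summed level was 2347 to 2913 CPM in tumours, 2776 to 3035 in AT2 cells and 896 to 1061 in adjacent lung, so the tumour and AT2 ranges overlapped. Without Etv5, a choice made after seeing the data, the other 19 summed to 2217 to 2707 CPM in tumours and 1398 to 1525 in AT2 cells. Of the 20, 11 were higher than adjacent lung and none was lower. Dusp6, a feedback phosphatase of ERK, was at 327, 229 and 244 CPM against 71.99, 81.8 and 89.4 in AT2 cells (1.70 ± 0.18). Spry2, a feedback inhibitor, was at 62.3, 122 and 98.3 against 149, 125 and 120.4 CPM with overlap, and Spry1 at 194, 228 and 205 against 439, 405 and 363, lower without overlap, although Spry1 and Spry2 were higher than adjacent lung, by 1.31 ± 0.30 (edgeR adjusted p = 0.0359) and 1.92 ± 0.36 (edgeR adjusted p = 0.0205). These 3 were named after their values were seen. Dusp5, a nuclear ERK phosphatase, was at 31.4, 40.6 and 48.9 against 2.69, 2.67 and 1.97 CPM and gave 1.41 ± 0.38 (edgeR adjusted p = 0.0563, 0.0184 once blocked by mouse) against adjacent lung. Ereg, epiregulin, a ligand of the EGF receptor family, was at 49.95, 3.69 and 9.93 CPM, highest in tumour 102, against 0, 0 and 0.127.

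Within this list the 3 related ETS factors Etv1, Etv4 and Etv5 parted. Etv5, which maintains AT2 identity, was at 206, 130.1 and 217 CPM in tumours and 1380, 1516 and 1378 in AT2 cells (-2.98 ± 0.24). Etv4 was at 33.0, 72.5 and 81.4 against 0.313, 0.296 and 0.826 CPM (5.94 ± 0.47) and Etv1 at 88.7, 50.7 and 36.3 against 1.88, 2.96 and 2.29 (4.28 ± 0.40). In each of the 3 genes the tumours and the AT2 libraries were at least 4-fold apart. Against adjacent lung, at 104, 104 and 140.5 CPM, Etv5 did not pass (edgeR adjusted p = 0.334), whereas Etv4 gave 6.10 ± 0.59 (edgeR adjusted p = 0.00592) and Etv1 2.40 ± 0.58 (edgeR adjusted p = 0.0404).

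Of 17 RAS, RAF and EGF receptor family genes past the filter 1 was above (Egf, a ligand) and 2 were below (Met and Egfr). The shares of all genes were 9.03% above and 1.83% below. Met, the hepatocyte growth factor receptor, was at 122, 128 and 35.8 CPM in tumours, 599, 657 and 609 in AT2 cells and 24.6, 46.2 and 12.5 in adjacent lung, with 1.73 ± 0.59 (edgeR adjusted p = 0.116, 0.0162 once blocked by mouse) against adjacent lung. Egfr was at 2.36, 3.46 and 1.37 against 22.3, 18.7 and 24.9 CPM and was lower than adjacent lung too (-3.17 ± 0.63, edgeR adjusted p = 0.0236), although it lost its call against AT2 with wild-type cells as the reference. Ros1, a receptor kinase of AT2 cells, was at 169, 152 and 203 against 46.8, 50.4 and 37.0 CPM (1.96 ± 0.18, no overlap) and gave 6.73 ± 0.69 (edgeR adjusted p = 0.00592) against adjacent lung. Fgfr2, the FGF receptor of the lung epithelium named after its values were seen, was at 289, 149 and 165 against 1297, 1203 and 1053 CPM. Alk was at 9.61, 0.384 and 5.94 CPM, low in tumour 217, against 0, 0.356 and 0.318.

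Wnt signalling maintains AT2 stem cells, and genes of this pathway lay on both sides of the AT2 level. The summed level of 20 Wnt targets and regulators was 252 to 278 CPM in tumours and 564 to 622 in AT2 cells. Of 16 past the filter 3 were above and 3 below, beside 9.03% and 1.83% of all genes. With no overlap 7 were higher and 7 lower, beside 35.5% and 25.1%, and the median difference was -0.40. Against adjacent lung 5 of 19 tested were lower and 1 was higher. Axin2, a standard readout of canonical Wnt activity, was at 5.74, 5.58 and 5.09 CPM against 51.3, 49.5 and 46.2 in AT2 cells (-3.05 ± 0.07) and was lower than adjacent lung (-2.32 ± 0.35, edgeR adjusted p = 0.0113). Nkd1, another feedback target, was at 79.8, 76.5 and 72.02 against 259, 258 and 227 CPM (-1.20 ± 0.30, edgeR adjusted p = 0.0474 against adjacent). Notum, which inactivates Wnt proteins and shares 27.5% of its sequence with other genes, was at 0.972, 2.31 and 2.18 against 25.6, 23.2 and 21.6. These 3 were named after their values were seen. The ligand Wnt3a was at 0, 2.34 and 0.0532 against 19.6, 20.4 and 22.7 CPM. The secreted inhibitors Dkk2, Dkk3 and Sfrp1 were the 3 above. Dkk2 was at 31.8, 9.18 and 9.48 CPM against no count in AT2 cells and was higher than adjacent lung (3.95 ± 0.60, edgeR adjusted p = 0.0118), whereas Dkk3 and Sfrp1 stood under adjacent lung, at 32.6, 30.4 and 10.6 and 6.72, 11.8 and 3.71 CPM against 119, 73.2 and 49.6 and 22.9, 43.2 and 31.0 there.

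Markers of the transitional state between AT2 and AT1 cells were higher in tumours than in AT2 cells. Of 20 genes, all past the filter, 7 were above, none was below, 15 were higher with no overlap, and the median difference was 2.01. Against adjacent lung 3 were higher and 1 was lower. Clu, clusterin, a secreted chaperone, was at 5452, 1581 and 5378 CPM in tumours, 154, 169 and 186 in AT2 cells and 203, 344 and 398 in adjacent lung (3.67 ± 0.62, edgeR adjusted p = 0.0147). Ccn2, a target of YAP and TGF-beta, was at 176, 69.1 and 76.5 against 1.56, 1.19 and 1.84 CPM, and Plaur, the urokinase receptor, at 34.0, 36.1 and 25.3 against 0.563, 0.948 and 0.826. Adjacent lung was at 287, 103 and 112 CPM for Ccn2, where it overlapped with the tumours, and at 47.6, 114 and 83.7 for Plaur, over all 3 tumours.

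AT1 genes lay on both sides of the AT2 level. Of 16, 3 were above AT2 and none below, beside 9.03% and 1.83% of all genes. With no overlap 7 were higher and 5 lower than AT2, beside 35.5% and 25.1% of all genes. The median difference was 0.30. Their summed level was 1791 to 3105 CPM in tumours, 3079 to 3277 in AT2 cells and 3928 to 5169 in adjacent lung. Against adjacent lung 7 of 16 were lower and none was higher. Pdpn, podoplanin, was at 76.6, 117 and 28.3 CPM against 2.003, 2.90 and 2.10 in AT2 cells, and Igfbp2, an insulin-like growth factor carrier of mature AT1 cells, at 9.67, 72.02 and 10.7 against 0.563, 0.237 and 0.318. Spock2, a proteoglycan, was at 15.1, 54.4 and 12.3 against 1.82, 1.07 and 0.954 CPM. Hopx, a homeodomain protein of AT1 cells, was at 44.1, 84.3 and 24.0 against 6.26, 7.47 and 7.25 CPM, with 460.4, 499 and 229.6 in adjacent lung. Tumour 217 was the highest tumour in each of these 4 genes. Of other epithelial types, Muc5b, a gel mucin of airways, was at 226, 62.6 and 189.7 CPM and Muc5ac, the goblet cell mucin, at 25.1, 2.06 and 18.3, against 1.44, 2.55 and 2.03 and 0, 0 and 0.127 in AT2 cells. The squamous gene Serpinb5 was at 19.8, 7.78 and 2.77 against no count, and was the one basal or squamous gene of 8 past the filter. Serpinb5 was not called with wild-type AT2 cells as the reference, nor Muc5ac with scaling by library total or by DESeq2 size factors.

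**Figure D4:**
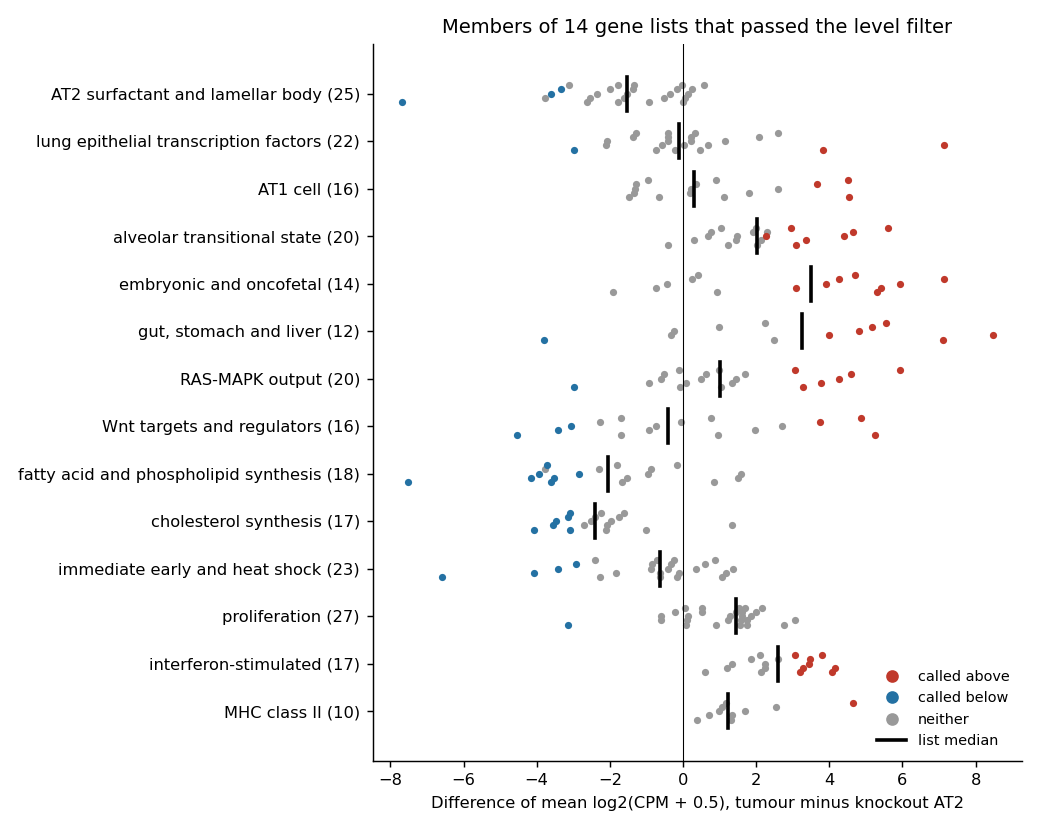
Difference of mean log2(CPM + 0.5), tumour minus knockout AT2 (horizontal axis), for members of 14 gene lists past the level filter (number in brackets), 1 point per gene, with the list median as a black bar. Medians run from -2.39 for cholesterol synthesis to 3.50 for the embryonic and oncofetal list. Genes with no count in AT2 cells pass the filter only through the tumours, which raises such medians. Over all members, the median was 1.31 for the embryonic and oncofetal list. For the gut, stomach and liver list it was 0.40, against 3.25 past the filter.

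Immediate early genes turn on within minutes of stress and are known to be induced by tissue dissociation. Of 23 immediate early and heat shock genes past the filter 4 were below AT2 and none above, with a median difference of -0.62. Fosb was at 0.514, 0.8 and 3.74 CPM against 177, 181 and 151 in AT2 cells, and Fos, its partner in AP-1, at 30.6, 13.5 and 15.2 against 354, 373 and 240.1. Egr1 was at 30.7, 21.1 and 18.2 against 261, 221 and 258 CPM and Nr4a1, a nuclear receptor, at 32.5, 21.9 and 32.4 against 289, 197 and 184. In adjacent lung, which was not sorted, they were at 2.80, 6.14 and 6.24 CPM for Fosb, 57.8, 65.8 and 29.6 for Fos, 32.4, 43.1 and 35.4 for Egr1 and 34.9, 55.1 and 43.1 for Nr4a1, and none of the 4 passed against it without the block (edgeR adjusted p from 0.0855 to 0.304), while Fos did with it (0.0488). Nr4a1 was not called with wild-type AT2 cells as the reference. The part of cell sorting in these levels was not tested. Motifs were counted in the 250 bases before the start of RefSeq promoters (GRCm38.p6, both strands), of which 19 of the 24 listed genes had one. A listed gene counted if any of its promoters held the motif, while the share of all promoters is per promoter. The shares are thus in unlike units, and no enrichment is read from them. The cyclic AMP response element TGACGTCA was in 2 of 19 against 1.55% of all promoters, and the CArG box in 2 of 19 against 1.47%. The AP-1 motif TGANTCA was in none, against 6.75%. Among 12 RAS-MAPK genes with a promoter the ETS motif CCGGAAGT was in none, against 2.88%, the cyclic AMP element in 2, the CArG box in 1 and the AP-1 motif in none.

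Of 27 proliferation genes past the filter none was above, 1 was below and 17 were higher with no overlap, with a median difference of 1.45, and none of 28 passed against adjacent lung (1 did with the block). Ube2c, of the mitotic ubiquitin machinery, was at 8.45, 42.3 and 12.9 CPM against 0.876, 3.32 and 1.14, Birc5, survivin, at 3.21, 11.4 and 5.05 against 0.188, 1.01 and 0.254, and Cdk1 at 5.67, 25.4 and 7.93 against 0.876, 3.97 and 1.91. In all 3 tumour 217 was the highest. Bub1, a spindle checkpoint kinase, was the gene below, at 1.78, 5.00 and 2.57 against 28.7, 29.5 and 29.1 CPM. Mki67, the proliferation antigen, was at 22.6, 54.8 and 17.7 against 10.02, 22.1 and 6.93 CPM with overlap.

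Among 17 tumour suppressors and cell-cycle brakes 1 was above AT2 and none was below, beside 9.03% and 1.83% of all genes. None passed against adjacent lung (1 higher and 1 lower with the block). Cdkn2a, which encodes p16 and p19ARF and is induced with age and by oncogenes, was at 20.4, 28.7 and 20.01 CPM in tumours and no count in AT2 cells, at least 373-fold higher, with 0.672, 14.8 and 5.34 in adjacent lung of the same old mice. Cdkn1a, p21, was at 407, 73.7 and 186 against 46.8, 43.4 and 39.9 CPM, and Apc, a brake on Wnt signalling, at 133, 66.8 and 91.4 against 472, 389 and 409. None of 20 DNA damage and repair genes was called. Their summed level was 327 to 334 CPM in tumours and 318 to 320.3 in AT2 cells.

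Of 20 glycolysis and hypoxia genes 3 were above AT2 (Adm, Egln3 and Slc16a3) and none was below. With no overlap 10 of the 20 were higher, beside 35.5% of all genes. Against adjacent lung 2 were higher (6 with the block). Egln3, a hypoxia-induced prolyl hydroxylase, was at 164, 3.81 and 21.8 CPM, with tumour 102 the highest, against 0.25, 0 and 0. Slc16a3, a lactate exporter, was at 38.1, 14.7 and 32.5 against 1.88, 0.237 and 0.381 CPM and Eno1, enolase, at 433, 182 and 419 against 53.0, 54.8 and 54.2. Of 28 NRF2 targets and antioxidant enzymes 2 were above, a share under the 9.03% of all genes. Both, Gpx3, plasma glutathione peroxidase, at 257, 759 and 96.6 against 1.19, 1.66 and 1.21 CPM and Sod3, extracellular superoxide dismutase, at 49.1, 184 and 24.4 against 0.563, 0.652 and 0.0636, encode secreted enzymes and were at 1603, 1874 and 612 and 367, 417 and 270.3 CPM in adjacent lung. Of 9 oxidant-producing enzymes past the filter 5 were above, among them the fibroblast gene Nox4 at 14.7, 11.2 and 3.81 against 0.0626, 0 and 0 CPM and the phagocyte oxidase subunit Cybb at 122, 49.2 and 56.3 against 6.82, 2.13 and 2.80, and none of 11 tested passed against adjacent lung. With the mouse as a block 1 of the 11 was higher and 1 lower, the latter being Nox4 (edgeR adjusted p = 0.0711, and 0.0215 with the block). Of the 6 mitochondrially encoded genes above AT2, 5 share at least 25% of their sequence with other genes, such as mt-Co3 at 1828, 6376 and 1844 against 17.3, 19.9 and 12.3 CPM, and no difference is read from them. The other, mt-Atp8, overlaps its neighbour in the genome.

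Interferon-stimulated and MHC class II genes were higher than in AT2 cells. Of 17 interferon-stimulated genes past the filter 8 were above and all 17 were higher with no overlap, and 2 of the 8 share at least 25% of their sequence with other genes. Against adjacent lung 6 of 18 were lower and none was higher. Ifit1, an RNA sensor, was at 6.51, 7.31 and 7.32 CPM in tumours, 0, 0 and 0.127 in AT2 cells and 16.9, 16.4 and 18.3 in adjacent lung, and Ifit2 at 5.11, 6.84 and 7.23, 0.188, 0.178 and 0 and 17.2, 13.9 and 18.1. All 10 MHC class II genes were higher than in AT2 cells with no overlap, beside 35.5% of all genes, and 1 was above, beside 9.03%. That gene, H2-DMb2, a peptide-loading chaperone, was at 113, 102 and 139 against 4.26, 4.21 and 4.196 CPM. H2-DMb2 was also higher than adjacent lung (2.11 ± 0.44, edgeR adjusted p = 0.027). H2-Ab1 was at 1254, 1472 and 954 against 492, 472 and 499.6 CPM. H2-K1, a class I heavy chain, was lower than in AT2 cells, at 510.4, 277 and 377 against 968, 1035 and 1014 CPM, while its partner B2m was higher, at 569, 814 and 511 against 234, 249 and 234. Of 16 cytokine genes past the filter 3 were above (Cxcl5, Il1a and Saa3) and 1, Nfkbiz, a regulator of NF-kB, was below, at 9.36, 12.6 and 19.5 against 102, 97.2 and 83.6 CPM. Nfkbiz and Cxcl5 were not called with wild-type AT2 cells as the reference, nor was Nfkbiz with scaling by library total.

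Markers of other cell types moved with the comparison. Of the 18 endothelial genes 16 were above AT2, with a summed level of 1207 to 1513 CPM in tumours, 12.9 to 20.7 in AT2 cells and 4119 to 6272 in adjacent lung, and 13 were lower than adjacent lung. Cdh5, VE-cadherin, was at 158, 126 and 117 CPM in tumours, 0.501, 0.178 and 0.254 in AT2 cells and 1075, 528 and 507 in adjacent lung. Of 20 fibroblast and matrix genes 14 were above, with sums of 2180 to 4111 CPM in tumours, 809 to 835 in AT2 cells and 4755 to 6578 in adjacent lung, and 4 had no count in AT2 cells. Of 11 smooth muscle and pericyte genes 7 were above, 1 of which shares at least 25% of its sequence. The part of such cells in the genes above AT2 was not tested, and 230 of the 1319 were lower in tumours than in adjacent lung.

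Of 13 alveolar macrophage genes 8 were above AT2, with sums of 1075 to 2474 CPM in tumours, 34.6 to 50.8 in AT2 cells and 724 to 8550 in adjacent lung (2 of the 8 share at least 25% of their sequence), and of 16 monocyte and other macrophage genes 10. C1qa, a complement gene of macrophages, was at 106, 236 and 94.3 CPM in tumours and 0.501, 0.237 and 0.191 in AT2 cells, and Spp1, osteopontin, at 169, 117 and 149 against 0.313, 0 and 0.254. Adjacent lung was at 54.4, 265 and 112 CPM for C1qa and 102, 1538 and 2015 for Spp1. Neither gene passed against it (edgeR adjusted p = 0.994 and 0.075). Of 18 T cell and CD103 genes 1 was above, Itgae, which lost its call under 4 other settings, and the sums were 23.9 to 89.3 CPM in tumours, 4.96 to 6.38 in AT2 cells and 88.7 to 227 in adjacent lung. The deletion under study is in this cell type. No cytotoxic or NK gene of 12 passed the filter. Of 11 neutrophil genes 7 passed the filter and none was above, but all 7 were higher than in AT2 cells with no overlap (median difference 2.34), and the list summed to 1105 to 2845 CPM in tumours and 364 to 403 in AT2 cells. S100a8, S100a9, Retnlg and Mmp9 were each at or under 46.6 CPM in tumours, so most of that sum came from other members. The 4 erythroid genes above, such as Hbb-bs at 46.8, 514 and 66.6 against 0.438, 0 and 0 CPM, share 52.3% or more of their sequence and were highest in tumour 217. The summed level of the 14 ciliated cell genes went the other way. It was 8.82 to 28.6 CPM in tumours, 55.3 to 61.6 in AT2 cells and 458 to 859 in adjacent lung. Most of the AT2 sum came from Tppp3, at 44.8, 49.8 and 46.2 CPM there. Of the 14 genes 5 passed the filter, none was called and 3 were lower than in AT2 cells with no overlap. Against adjacent lung 12 of the 14 were lower. The sum in AT2 cells is therefore not read as a level of ciliated cells.

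**Figure D5:**
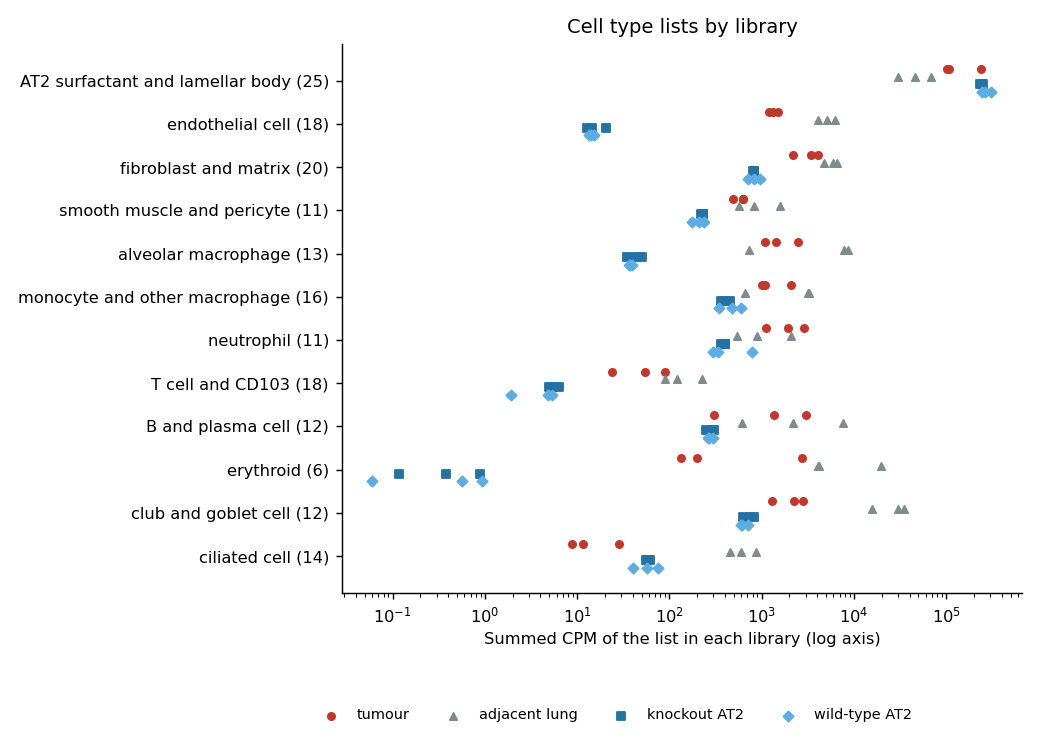
Summed CPM of 12 cell type lists (number of genes in brackets) in each of the 12 libraries, on a log axis. Tumours lie between AT2 cells and adjacent lung for endothelial genes (1207 to 1513 CPM) and under both for the ciliated cell sum (8.82 to 28.6 CPM). Most of the ciliated cell sum in AT2 cells came from Tppp3.

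Sftpc was at 78863, 77767 and 75401 CPM in the knockout AT2 libraries, and their sums of endothelial, T cell, cytotoxic and erythroid genes stayed at or under 20.7 CPM. Other lists did not reach such low sums in AT2 cells: fibroblast and matrix genes summed to 809 to 835 CPM, monocyte and other macrophage genes to 363 to 459 and neutrophil genes to 364 to 403. Most of each sum came from a part of the list. In AT2 cells Col1a1, Col1a2, Col3a1 and Eln were each at or under 0.939 CPM. C1qa, C1qb, C1qc and Spp1 were at or under 0.501 there, and S100a8, S100a9, Retnlg and Mmp9 at or under 3.13. These sums therefore do not measure how many such cells the sort held. Med23, a subunit of the Mediator complex, was at 25.3, 17.7 and 33.6 CPM in tumours and 45.1, 49.3 and 49.0 in AT2 cells (-0.94 ± 0.27). The deletion is in T cells, so this level checks no label. Of 15 circadian clock genes past the filter none was called. Bhlhe41, a repressor of the clock, was at 25.3, 14.98 and 25.2 against 1.502, 4.92 and 2.16 CPM, and Per3 at 4.90, 8.26 and 72.4 in tumours, where mouse 224 stood apart, against 45.5, 44.9 and 46.1.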

How the data were processed

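RNA of 12 samples was sequenced: 3 lung tumours and 3 adjacent lungs of the same knockout mice, and sorted AT2 cells of 3 knockout and 3 wild-type mice. Libraries were made from poly-A RNA with a NEBNext Ultra kit, per the labels' protocols. The authors deposited raw counts per gene in 2 tables, one for lung and one for AT2 cells. FastQC, Trimmomatic 0.39, HISAT2, StringTie 1.3.3b, DESeq2 1.28.1 and GRCm38/mm10 are named per the submitters' processing notes, while for the counting step, its use of strand and the annotation the sources used here name nothing. Rows without a gene name held 0.03878% of counts in the lung table and 0.003826% in the AT2 table.

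The counts were joined on shared identifiers and scaled to CPM with TMM over all 12 libraries. Tumour and AT2 libraries were compared on log2(CPM + 0.5) with the 4-fold gap rule and no test, and ± gives the SE over 3 mice per group, or for tumour against adjacent lung the SE of the edgeR fit. Within each table, edgeR 4.0.16 (R 4.3.3) quasi-likelihood tests with filterByExpr and Benjamini-Hochberg adjustment over all genes tested were used at a threshold of 0.05. They were tested on simulated data, and DESeq2 1.42.0 was an alternative. Tumour and adjacent lung came from the same mice, and their deviations from the group means correlated at 0.376, 0.565 and 0.489 in mice 102, 217 and 224, so that a fit with the mouse as a block was also made. Shared sequence was computed from the reference transcripts, and gene names and coordinates come from GENCODE M21.

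Genes were named by 5 rules: the 12 with the widest gap on each side (mean of at least 10 CPM in the higher group), the 12 on each side that also passed against adjacent lung in that direction (at least 5 CPM), up to 4 per list by size of difference, list namesakes, and Med23. The gap and adjacent-lung rules leave out predicted genes, antigen receptor and immunoglobulin segments, pseudogenes and sex-linked genes. Axin2, Cebpa, Dio3, Dusp6, Elf5, Fgfr2, Hnf4a, Mki67, Mycn, Nkd1, Nkx2-1, Notum, Rtl1, Sftpa1, Sftpb, Sftpc, Sftpd, Spry1, Spry2 and Tfrc fall outside these rules and were chosen after their values were seen. Some genes are not reported here. The comparison and the lists were chosen with earlier results of these data known.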

Additional observations from a re-analysis of the deposited data

How the results depend on the processing

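The counts of 1319 genes above and 267 below AT2 became 752 and 173 with a pseudocount of 2, 2347 and 919 with a 2-fold gap, 704 and 87 with an 8-fold gap, and 3020 and 973 with edgeR on the joined tables (at least 4-fold). Leaving out 1 library gave 1359 to 1616 above and 285 to 421 below. Other scalings, wild-type AT2 cells as reference and, chosen after seeing the data, genes with under 25% shared sequence kept both counts within 1.5 times. Tumour against adjacent lung gave 2007 genes, 2980 with the mouse as a replicate block, 3718 with DESeq2, and 598 to 1854 without 1 library. Knockout against wild-type AT2 cells gave 0 genes, 1 with DESeq2, 17 with no filter and 0 to 1 without 1 library. The 122 genes above AT2 and higher than adjacent lung became 168 with the block and 59 to 131 without 1 library, and the 60 below and lower became 76 with the block, 103 with DESeq2 and 24 to 68 without 1 library. These alternatives were chosen after seeing the data, and the cause of each shift was not tested. Of 174 named genes 128 were called, and a change of direction was looked for in these alone. None changed direction, for which a 4-fold gap leaves little room, and 1748 of 1792 of their values kept the call. With the block, members higher than adjacent lung became 4 in place of 1 of the MHC class II genes, and members lower became 8 in place of 3 of the fibroblast genes and 7 in place of 2 of the T cell genes.

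Groups differ in tissue, age, sorting and table at once, so no alternative here separates these. AT2 libraries were shallower than tumours: 3 counts over the AT2 group are 0.0618 CPM, and lower levels were not detectable there.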
